A study of Homo sapiens with 7 samples.

Results

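Tetraspanins are small membrane proteins with a conserved pair of extracellular loops. They gather integrins, adhesion molecules and proteases into membrane microdomains, and several of them are standard markers of extracellular vesicles. In carcinomas they are studied for roles in adhesion, migration and vesicle release. Here 10 members of the family were followed: TSPAN1, TSPAN3, TSPAN4, TSPAN8, TSPAN15, CD9, CD63, CD81, CD82 and CD151. They were selected on membership of this family with their differences between these knockdown and scramble arrays already known, so their values on these arrays are a description and support nothing independently. Each of the 10 was matched by its current symbol to a transcript cluster (the set of probes for a transcript) annotated to that gene alone. Where a gene had several clusters, the brightest by its mean over the 7 arrays was to be used, but each of the 10 had just 1. They are 10 of 17958 genes measured, and of 32 tetraspanins measured among the 33 of the human family.

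The cells were SKOV3, a human ovarian carcinoma line labelled as serous, made into stable lines by lentivirus and grown with puromycin. The labels differ on this: all samples give SKOV3 as the cell line, but their source names go from SKOV3 up to SKOV9, each sample having its own. The arrays were 3 of clones labelled CtBP1 knockdown, 2 of CtBP2 knockdown clones and 2 of scramble control cells, so every group had been infected and selected. Per the labels the knockdown was checked at protein level by western blot. CtBP1 and CtBP2 are related transcriptional co-repressors, recruited to promoters by DNA-binding factors such as ZEB proteins and Krüppel-like factors. The comparison asks which genes respond to loss of one or the other. The platform was the Human Gene 1.1 ST array of Affymetrix, and values are log2 signals, on which a difference of 1 is a doubling. Each knockdown array is a different numbered clone, but no label says that the cells were cultured separately, and a p-value here reflects the scatter of these arrays alone, which may be technical. With so few arrays the precision is limited.

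The labels were first set against the targeted genes. CTBP2 read 4.64 and 4.22 in the CtBP2 knockdown cells, against 5.70 and 6.14 in scramble control. CTBP1 read 5.11, 6.13 and 6.13 in the cells labelled CtBP1 knockdown, against 5.69 and 6.37 in scramble control, so that signal did not set them apart, and the name "labelled CtBP1 knockdown" is kept for that reason. Scramble control 1 stood apart from the rest. Its correlation with any other array, taken across genes, which are not independent replicates, was 0.926 to 0.941, and pairs of the remaining 6 reached 0.971 to 0.993. Its range of signals was narrower, and 4572 genes with a mean of 5 or more had a median difference of -0.73 between scramble control 1 and scramble control 2. On the same contrast the 10 tetraspanins had a median of -0.41 and the 8 markers of dividing cells one of -3.05. The mean of those markers was 7.40, 7.16 and 7.39 in the cells labelled CtBP1 knockdown and 7.48 and 7.65 in the CtBP2 knockdown cells, against 4.67 and 7.56 in scramble control. Their part in the tetraspanin results was not tested, and the larger differences are also given with a control left out. The epithelial markers ERBB2, KRT8 and KRT18 were bright on every array, WT1 was dim at 1.92 to 2.21, and the fibroblast, endothelial and leukocyte markers lay between 1.22 and 3.32.

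No tetraspanin passed the test in any comparison. The test was limma with Benjamini-Hochberg adjustment over all 17958 genes and a threshold of 0.05, and it called 0% of genes for the arrays labelled CtBP1 knockdown, 0.00557% for the CtBP2 knockdown and 0% between the knockdowns. At an unadjusted p under 0.05 the counts over all genes were 861, 1827 and 1395. The 2 members with such a p between the knockdowns were TSPAN1, highest in the cells labelled CtBP1 knockdown, and CD63, highest in the CtBP2 knockdown cells. In bulk RNA, fewer cells carrying a transcript and less transcript per cell cannot be told apart.

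**Figure D1:**
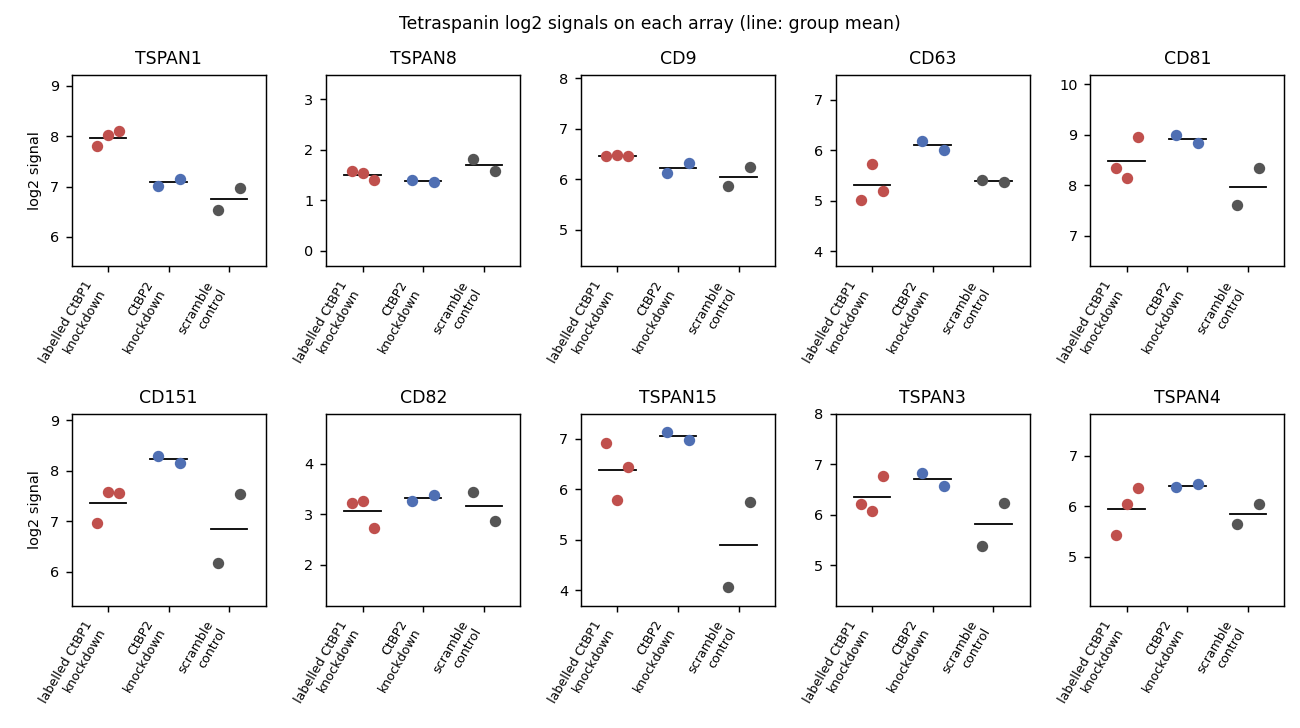
Log2 signal (vertical axis, the same span in every panel) of the 10 tetraspanins on each array, with a point per array and a line at the group mean. TSPAN1 sits between 7.80 and 8.09 on the 3 arrays labelled CtBP1 knockdown, above all 4 other arrays, and CD63 sits at 6.001 and 6.20 in the CtBP2 knockdown cells, above all 5 others.

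For TSPAN15 and TSPAN1, the members furthest above scramble control in the cells labelled CtBP1 knockdown, the stretch upstream of the annotated start site is shown as context, since co-repressors act at promoters. RefSeq (GRCh38.p14) places the stretch before the TSPAN1 start at chr1:46174837-46175086 and that before the TSPAN15 start at chr10:69451215-69451464, both on the plus strand. Capitals mark matches on either strand to the E-box CACCTG, the core bound by ZEB proteins, to CCACCC, a core of Krüppel-like factor sites, or to the GC box GGGCGG.
TSPAN1: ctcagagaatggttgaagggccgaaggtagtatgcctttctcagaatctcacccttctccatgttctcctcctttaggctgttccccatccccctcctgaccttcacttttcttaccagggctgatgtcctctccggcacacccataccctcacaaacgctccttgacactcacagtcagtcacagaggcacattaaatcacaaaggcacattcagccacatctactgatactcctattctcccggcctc
TSPAN15: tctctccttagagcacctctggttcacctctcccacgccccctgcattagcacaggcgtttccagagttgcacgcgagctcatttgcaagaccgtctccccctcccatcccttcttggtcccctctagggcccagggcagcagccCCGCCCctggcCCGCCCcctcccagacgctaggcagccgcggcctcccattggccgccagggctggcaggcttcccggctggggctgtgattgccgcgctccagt
The TSPAN1 stretch held none of the 3 motifs, and the TSPAN15 stretch held the GC box at 2 places and neither of the others. Promoter windows were listed for 7 of the 10 members, some with several start sites. Over those windows, which also run a little past the start, 2 of 7 members had the E-box (CD9 and CD63), 3 of 7 the CCACCC core and 6 of 7 the GC box. Over all 27305 genes with a window these motifs were held by 24.1%, 38.0% and 48.3%, a gene counting if any of its windows matched. Over the 35116 single windows the shares were 20.59%, 34.29% and 44.95%. The number of windows differs between genes, and CD63 had 8, so the member counts and the gene shares are not like for like. A match is a run of letters and does not show binding.

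TSPAN1, an epithelial tetraspanin studied in several carcinomas, had log2 signals of 7.80, 8.02 and 8.09 in the cells labelled CtBP1 knockdown, against 6.54 and 6.98 in scramble control. In the CtBP2 knockdown cells it read 7.02 and 7.15. The lowest array labelled CtBP1 knockdown was thus above the highest control by 0.82 and above the highest CtBP2 knockdown array by 0.65. The CtBP2 knockdown arrays cleared the controls by 0.04 only. The log2 difference from scramble control was 1.21 ± 0.17 (SE of the fit, 3 arrays against 2) in the cells labelled CtBP1 knockdown, or 2.31-fold (adjusted p over all genes 0.734). It was 0.99 without scramble control 1 and 1.42 without scramble control 2, and the fit without scramble control 2, whose only control is the outlying one, gave an adjusted p of 0.0135. For the CtBP2 knockdown the difference from scramble control was 0.32 ± 0.19 (adjusted p 0.541), and it was 0.11 without scramble control 1 and 0.13 after quantile normalization. Between the knockdowns TSPAN1 differed by 0.89 ± 0.17 (labelled CtBP1 minus CtBP2), a difference whose means use neither control array (adjusted p 0.278). With array weights it passed there at 0.034, in a fit that called 272 of all genes. That fit gave both CtBP2 knockdown arrays a weight of 2.66, both scramble arrays 0.27 and the arrays labelled CtBP1 knockdown 1.07 to 1.46. In a group of 2 arrays the weights come out equal, so they cannot single out the outlying control.

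TSPAN8, a vesicle-associated tetraspanin raised in gastrointestinal cancers, was near the floor of the arrays. It read 1.58, 1.55 and 1.39 in the cells labelled CtBP1 knockdown and 1.40 and 1.36 in the CtBP2 knockdown cells, against 1.82 and 1.58 in scramble control. Its differences from scramble control were -0.19 ± 0.13 and -0.32 ± 0.14, and -0.07 and -0.20 without scramble control 1. Its whole span over the 7 arrays was 0.46. Such a dim signal does not show that the transcript was present.

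CD9, CD63 and CD81 are the tetraspanins most used as markers of extracellular vesicles. CD9, which binds the immunoglobulin proteins IGSF8 and PTGFRN, read 6.46, 6.48 and 6.47 in the cells labelled CtBP1 knockdown, against 5.88 and 6.24 in scramble control. Those 3 arrays were almost equal (SD 0.0088) and above both controls. The difference was 0.41 ± 0.15 (adjusted p 0.734), and it was 0.23 without scramble control 1 and 0.59 without scramble control 2, where the adjusted p was 0.0351. The CtBP2 knockdown arrays, at 6.13 and 6.33, overlapped the controls, and their difference of 0.17 ± 0.16 was -0.01 without scramble control 1 and -0.05 after quantile normalization.

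CD63 is carried mainly on late endosomes and lysosomes. It had 6.20 and 6.001 in the CtBP2 knockdown cells, against 5.42 and 5.37 in scramble control. In the cells labelled CtBP1 knockdown it read 5.01, 5.73 and 5.19, on both sides of the controls. Its controls differed by 0.05, the least of the 10 members. For the CtBP2 knockdown the difference was 0.71 ± 0.25 (2 arrays against 2), or 1.63-fold (adjusted p 0.443). It was 0.73 and 0.68 without scramble control 1 and 2, and 0.46 after quantile normalization. In the cells labelled CtBP1 knockdown the difference was -0.08 ± 0.23, and between the knockdowns it was -0.79 ± 0.23 (labelled CtBP1 minus CtBP2) with an adjusted p of 0.464. The arrays did not overlap in that last comparison, with a gap of 0.27.

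CD81, an entry factor of hepatitis C virus, read 8.99 and 8.84 in the CtBP2 knockdown cells, against 7.60 and 8.35 in scramble control. The arrays labelled CtBP1 knockdown gave 8.34, 8.14 and 8.95 and overlapped both other groups, array 3 being like the CtBP2 knockdown and arrays 1 and 2 just under scramble control 2. The difference from scramble control was 0.94 ± 0.34 for the CtBP2 knockdown (adjusted p 0.458), and 0.57 or 1.31 without scramble control 1 or 2. It was 0.50 ± 0.31 for the arrays labelled CtBP1 knockdown, and 0.13 or 0.87 without scramble control 1 or 2.

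CD151 binds the laminin receptors built on integrin subunits ITGA3 and ITGA6. It read 6.97, 7.57 and 7.55 in the cells labelled CtBP1 knockdown and 8.29 and 8.16 in the CtBP2 knockdown cells, against 6.17 and 7.53 in scramble control. The CtBP2 knockdown arrays were above all 5 others, while those labelled CtBP1 knockdown lay around scramble control 2. The difference for the CtBP2 knockdown was 1.38 ± 0.45, or 2.597-fold (adjusted p 0.430). It was 0.69 without scramble control 1 and 2.06 without scramble control 2. For the arrays labelled CtBP1 knockdown the difference of 0.52 ± 0.42 turned to -0.17 without scramble control 1 and was 1.20 without scramble control 2. Between the knockdowns it was -0.86 ± 0.42 (labelled CtBP1 minus CtBP2), with a gap of 0.58 and an adjusted p of 0.747.

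CD82, known as a suppressor of metastasis, read 3.23, 3.26 and 2.73 in the cells labelled CtBP1 knockdown and 3.26 and 3.39 in the CtBP2 knockdown cells, against 3.45 and 2.88 in scramble control. Both knockdowns lay within or around the span of the controls, with differences from scramble control of -0.09 ± 0.24 and 0.16 ± 0.26. Both signs turned with a control left out: the labelled CtBP1 knockdown differed by 0.20 without scramble control 1, and the CtBP2 knockdown by -0.13 without scramble control 2.

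TSPAN15 belongs to the subgroup that escorts the sheddase ADAM10 to the cell surface. It spanned 3.07 log2 units, more than any other member. It read 7.13 and 6.97 in the CtBP2 knockdown cells and 6.92, 5.79 and 6.44 in the cells labelled CtBP1 knockdown, against 4.06 and 5.74 in scramble control. All 5 knockdown arrays were above both controls, but array 2 labelled CtBP1 knockdown cleared scramble control 2 by 0.05 only. The controls themselves differed by -1.68 (control 1 minus 2). For the CtBP2 knockdown the difference was 2.15 ± 0.60, or 4.43-fold (adjusted p 0.375). It was 1.31 without scramble control 1 and 2.99 without scramble control 2. For the arrays labelled CtBP1 knockdown it was 1.48 ± 0.54, or 2.79-fold (adjusted p 0.734), and 0.64 without scramble control 1. It was 2.32 without scramble control 2. Between the knockdowns it was -0.66 ± 0.54 (labelled CtBP1 minus CtBP2).

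Of 9 genes around ADAM10 (the protease, its relative ADAM17 and substrates), 4 were higher and 0 lower without overlap in the CtBP2 knockdown, where 19.3% of all genes were higher and 21.7% lower. In the cells labelled CtBP1 knockdown 1 was higher and 0 lower, where 6.76% and 7.59% of all genes were. The higher genes in the CtBP2 knockdown were CD44, APP, NOTCH2 and the dim CDH1. ADAM10 itself overlapped between all groups. Its signals were 8.18 and 8.61 in the CtBP2 knockdown cells and 8.28, 8.53 and 8.91 in the cells labelled CtBP1 knockdown, against 8.48 and 9.03 in scramble control. Its differences were -0.36 ± 0.29 and -0.18 ± 0.27. They were -0.64 and -0.46 without scramble control 1, and -0.09 and 0.09 without scramble control 2. CDH2, the N-cadherin that ADAM10 sheds, overlapped between all groups, with 6.88 and 6.76 in the CtBP2 knockdown cells and 7.86, 6.94 and 6.62 in the cells labelled CtBP1 knockdown, against 5.86 and 7.72 in scramble control. Its differences were -0.90 and -0.58 without scramble control 1, and 0.97 and 1.28 without scramble control 2. TSPAN14, another escort of ADAM10, read 7.16 and 7.11 in the CtBP2 knockdown cells and 7.29, 7.13 and 7.51 in the cells labelled CtBP1 knockdown, against 4.99 and 6.999 in scramble control. All 5 knockdown arrays were above both controls, but the differences of 1.14 for the CtBP2 knockdown and 1.31 for the labelled CtBP1 knockdown were 0.14 and 0.31 without scramble control 1.

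TSPAN3, a widely expressed member, read 6.82 and 6.58 in the CtBP2 knockdown cells and 6.22, 6.08 and 6.76 in the cells labelled CtBP1 knockdown, against 5.38 and 6.24 in scramble control. The CtBP2 knockdown arrays were above both controls, with a difference of 0.89 ± 0.35 and an adjusted p of 0.480. The difference was 0.46 without scramble control 1 and 1.32 without scramble control 2. For the arrays labelled CtBP1 knockdown, which overlapped the controls, it was 0.55 ± 0.32, and 0.12 or 0.97 without scramble control 1 or 2. TSPAN4, a marker of the retraction organelles called migrasomes, read 6.38 and 6.44 in the CtBP2 knockdown cells, against 5.65 and 6.04 in scramble control. In the cells labelled CtBP1 knockdown it read 5.43, 6.05 and 6.36, wider apart than either other group. Its differences from scramble control were 0.56 ± 0.32 and 0.10 ± 0.29, and the second turned to -0.10 without scramble control 1 and -0.01 after quantile normalization.

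**Figure D2:**
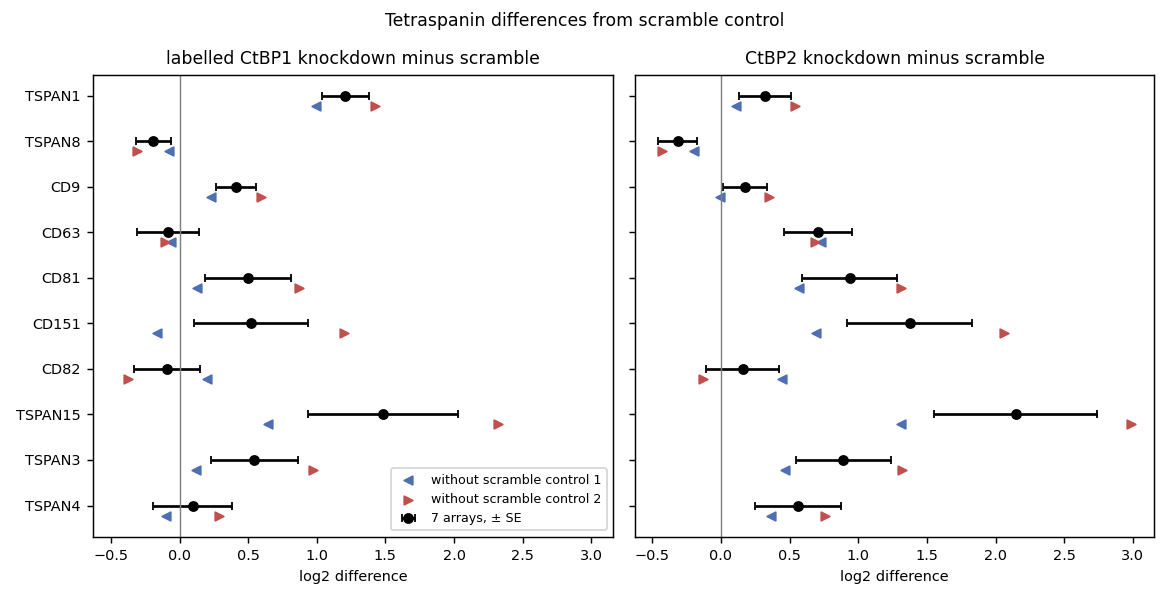
Log2 difference from scramble control (horizontal axis) for each tetraspanin, with the labelled CtBP1 knockdown at left and the CtBP2 knockdown at right. Circles with bars are the fit on 7 arrays ± SE, and triangles are the fits without scramble control 1 (pointing left) or 2 (pointing right). TSPAN15 and CD151 move most with the control kept (1.31 and 2.99 for TSPAN15 in the CtBP2 knockdown), and CD63 least (0.73 and 0.68).

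Read as a list, 9 of the 10 members were above scramble control on average in the CtBP2 knockdown and 7 of 10 in the cells labelled CtBP1 knockdown. Over all genes the shares were 47.3% and 49.1%. Of the 4572 genes with a mean of 5 or more, 3357 and 3227 were above scramble control. All members but TSPAN8 and CD82 had such a mean. The median difference of the 10 was 0.63 for the CtBP2 knockdown, against -0.02 over all genes and 0.30 over the 4572 genes with a mean of 5 or more. It was 0.46 for the arrays labelled CtBP1 knockdown, against -0.0047 over all genes and 0.22 over those bright genes. Without scramble control 1 the median of the 10 was 0.45 for the CtBP2 knockdown, against -0.06 over the bright genes. Then 8 of 10 were above 0, as were 42.6% of all genes and 43.9% of the bright genes. For the labelled CtBP1 knockdown the median was then 0.12, against -0.15 over the bright genes. There 6 of 10 were above 0, as were 45.0% of all genes and 32.2% of the bright genes. Without scramble control 2 the medians of the 10 were 0.72 and 0.73, against 0.67 and 0.57 over the bright genes. Above 0 were 8 and 7 of the 10, beside 49.8% and 51.2% of all genes and 83.4% and 81.5% of the bright genes. Both comparisons share the scramble arrays, so they are not independent of each other.

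In the CtBP2 knockdown the groups did not overlap for 8 members, 7 of them higher and 1 lower. Over all genes the groups did not overlap for 41%, with 19.3% higher and 21.7% lower. The 7 were TSPAN1, TSPAN3, TSPAN4, TSPAN15, CD63, CD81 and CD151, and the lower one was the dim TSPAN8. In the cells labelled CtBP1 knockdown 3 members, TSPAN1, TSPAN15 and CD9, were higher without overlap and 0 were lower, where all genes gave 6.76% and 7.59%, or 14.4% in either direction. That count was 3 without scramble control 1, where 44.1% of all genes did not overlap, and 8 without scramble control 2, where 71.4% did not. It was 6 without array 1 labelled CtBP1 knockdown, where 25.3% of all genes did not overlap. After quantile normalization the count was 5, and the share over all genes was not worked out. Directly between the knockdowns 6 members did not overlap: TSPAN1 and CD9 were higher in the cells labelled CtBP1 knockdown, and TSPAN4, TSPAN15, CD63 and CD151 were higher in the CtBP2 knockdown cells. In all, 32% of genes did not overlap there, 16.2% higher and 15.8% lower, and 53.2% of genes had a difference above 0, as 3 of the 10 members did. Among the 4572 genes with a mean of 5 or more, 1916 had a difference above 0. For the members without overlap between the knockdowns, the gaps of TSPAN4 and TSPAN15 were only 0.02 and 0.05.

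At an unadjusted p under 0.05, without adjustment for the number of genes, there were 5 members in the CtBP2 knockdown (TSPAN3, TSPAN15, CD63, CD81 and CD151), where 10.2% of all genes had such a p, 7.19% higher and 2.98% lower. All 5 were higher. There were 3 in the cells labelled CtBP1 knockdown (TSPAN1, TSPAN15 and CD9), all higher, where 4.79% did, 2.87% higher and 1.92% lower. Between the knockdowns there were 2, TSPAN1 higher and CD63 lower in the cells labelled CtBP1 knockdown, where 7.77% did, 2.46% higher and 5.31% lower.

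Among the 8 members brighter than TSPAN8 and CD82, the group means took 3 arrangements. TSPAN1 and CD9 were highest in the cells labelled CtBP1 knockdown, then the CtBP2 knockdown, then scramble control, and for CD9 the lower pair overlapped. TSPAN3, TSPAN4, TSPAN15, CD81 and CD151 were highest in the CtBP2 knockdown, with the arrays labelled CtBP1 knockdown between it and scramble control. Of these, only TSPAN15 had no overlap between any of the groups. CD63 was highest in the CtBP2 knockdown, while its other groups overlapped and had means of 5.31 ± 0.37 (SD, n = 3) in the cells labelled CtBP1 knockdown and 5.39 ± 0.03 (SD, n = 2) in scramble control.

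For the other 22 measured tetraspanins the values are given beside those of the 10 without a test between them, since the 10 were chosen with their differences known. The median differences of the 22 from scramble control were -0.11 for the CtBP2 knockdown and -0.07 for the arrays labelled CtBP1 knockdown. In each, 8 of 22 were above 0, where 47.3% and 49.1% of all genes were. Without scramble control 1 these medians were -0.04 and 0.04. None passed the test in either comparison. Without overlap, 3 were higher and 4 lower in the CtBP2 knockdown (all genes 19.3% and 21.7%), and 3 were higher and 0 lower in the cells labelled CtBP1 knockdown (all genes 6.76% and 7.59%). A single gene had an unadjusted p under 0.05, in the CtBP2 knockdown. It was TSPAN13, which read 4.23, 4.68 and 4.51 in the cells labelled CtBP1 knockdown and 5.15 and 5.54 in the CtBP2 knockdown cells, against 4.43 and 4.31 in scramble control. Its difference was 0.97 ± 0.21 for the CtBP2 knockdown (adjusted p 0.288). TSPAN2 stood out on a single clone, reading 5.40 on array 1 labelled CtBP1 knockdown and between 2.35 and 2.71 on the other 6 arrays. Many of these genes were dim, and 16 of the 22 were higher on scramble control 1 than on scramble control 2, against 3 of the 10.

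**Figure D3:**
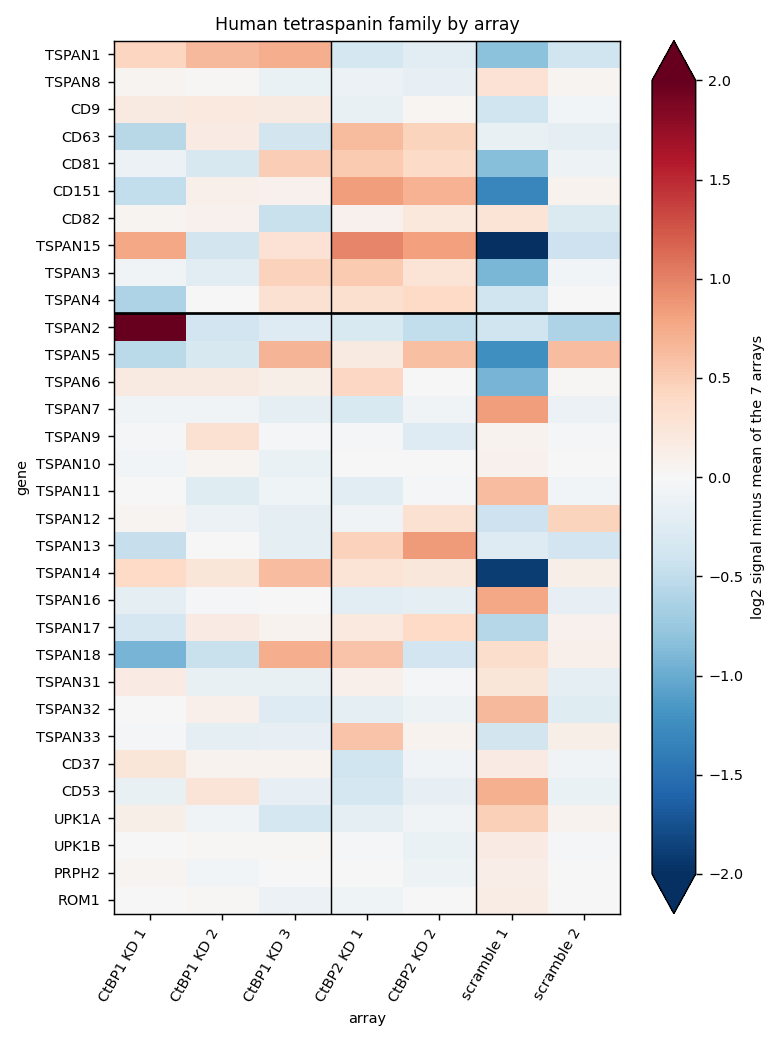
Log2 signal of the 32 measured tetraspanins minus each gene's mean over the 7 arrays, as colour (red higher, blue lower), with arrays labelled CtBP1 knockdown at left, CtBP2 knockdown in the middle and scramble control at right. The 10 described members are above the black line. Scramble control 1 is the darkest column, and TSPAN2 on array 1 labelled CtBP1 knockdown is the darkest red cell.

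Some members lie close together in the genome. In the RefSeq gene order CD151 and TSPAN4 on chromosome 11 are separated by POLR2L alone, and on the same chromosome CD81 is next to TSPAN32 and CD82 is next to TSPAN18. CD151 and TSPAN4 were both highest in the CtBP2 knockdown, but by group mean so were TSPAN3, TSPAN15, CD63, CD81 and CD82. The tetraspanin neighbours of CD81 and CD82 did not separate the CtBP2 knockdown from scramble control. TSPAN32 read 2.43 and 2.51 in the CtBP2 knockdown cells, against 3.26 and 2.37 in scramble control, and TSPAN18 read 4.32 and 3.38, against 4.11 and 3.85. Values of POLR2L and of the other genes beside these members are not given here.

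Likeness of profiles was measured as the root mean square difference of log2 signals over the 7 arrays, after centring each gene on its own mean, among 16966 named genes. It is a description, and the arrays share scramble control 1, which moved many genes. CD81 and TSPAN3 were nearest to each other among the members, at 0.07. For TSPAN3, CD81 was the nearest gene of all, and for CD81, TSPAN3 came after TMCC1, a membrane protein of the endoplasmic reticulum, at 0.03. RAB34, a small GTPase of membrane traffic, followed for both at 0.07 and 0.08. The next closest pair of members, CD82 and TSPAN8, was at 0.24, and both had narrow spans.

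Nearest to TSPAN1 were TNFAIP1 (0.17), an adaptor of ubiquitin ligases, GABBR1 (0.18), a receptor subunit for GABA, and ELK3 (0.18), an ETS transcription factor. TNFAIP1 read 7.44, 7.78 and 7.58 in the cells labelled CtBP1 knockdown and 6.97 and 6.95 in the CtBP2 knockdown cells, against 6.16 and 6.97 in scramble control. Nearest to TSPAN15 were TASOR2 (0.24), the tropomyosin TPM4 (0.25) and the kinase NUAK1 (0.26). CD151 was nearest to the spliceosomal protein SNRPB (0.12), the myosin heavy chain MYH9 (0.13) and NHP2 (0.13), and CD63 to SH2D4A (0.09), RPS9 (0.10) and MRPS22 (0.11). TSPAN4 was nearest to BCAT2 (0.11), TOR4A (0.11) and XYLT2 (0.12).

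**Figure D4:**
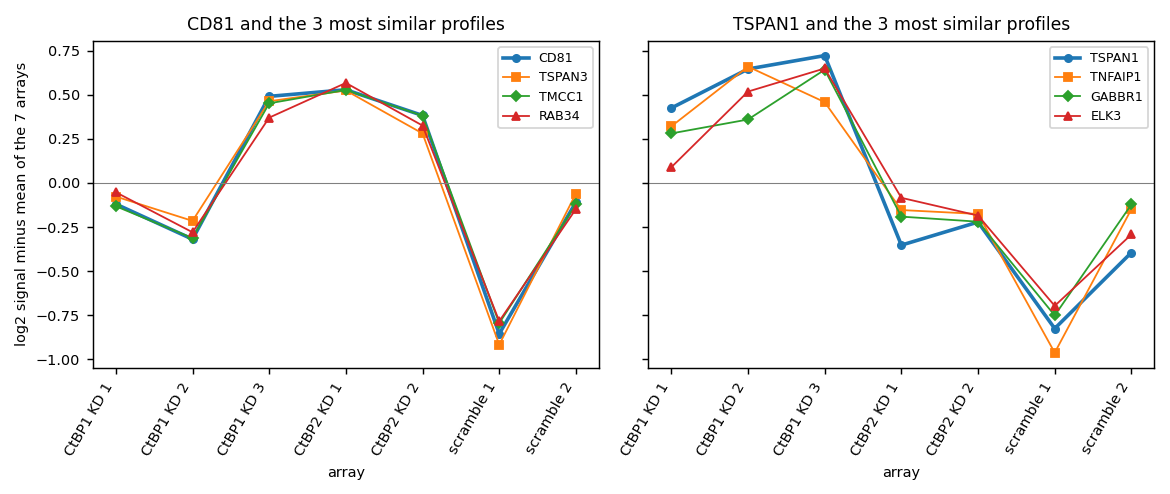
Log2 signal minus the mean of the 7 arrays (vertical axis) on each array, for CD81 with its 3 most similar genes at left and TSPAN1 with its 3 at right. Lines only join the arrays of a gene. The CD81, TSPAN3, TMCC1 and RAB34 lines nearly coincide (root mean square differences from CD81 of 0.03 to 0.07), while those around TSPAN1 are looser (0.17 to 0.18).

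The molecules that tetraspanins gather were taken as lists of textbook partners. No gene of any of them passed the test. ADAM10, CDH2, ITGA3, IGSF8, TSPAN18 and TSPAN32 were named for their relation to a member after their values had been seen. Of 7 measured integrin subunits, 3 were higher and 1 lower without overlap in the CtBP2 knockdown, where 41% of all genes did not overlap, and 0 were higher and 3 lower in the cells labelled CtBP1 knockdown, where 14.4% did not. ITGA6, the laminin receptor subunit bound by CD151, was lower without overlap in both knockdowns: it read 6.26 and 6.72 in the CtBP2 knockdown cells and 6.44, 6.17 and 7.13 in the cells labelled CtBP1 knockdown, against 7.60 and 7.54 in scramble control. Its controls agreed closely, unlike those of CD151, and its differences were -1.08 ± 0.33 and -0.99 ± 0.30 with adjusted p of 0.411 and 0.734. The other lower subunits in the cells labelled CtBP1 knockdown were the collagen receptor subunit ITGA2 and the dim ITGA7. ITGA2 read 4.07, 3.76 and 4.36 there, against 5.38 and 4.5005 in scramble control, a difference of -0.88 ± 0.34 that was -0.44 without scramble control 1. ITGA3, the other laminin receptor subunit, differed by 0.11 and 0.15. ITGB1, the shared beta subunit, read 7.78 and 8.07 in the CtBP2 knockdown cells, against 7.17 on both scramble arrays, for a difference of 0.75 ± 0.15 and an adjusted p of 0.257. The control values were identical, which can understate the spread.

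Of 13 other surface partners, 5 were higher and 2 lower without overlap in the CtBP2 knockdown, against 41% of all genes in either direction, and 3 were higher and 1 lower in the cells labelled CtBP1 knockdown, against 14.4%. EPCAM, an epithelial adhesion molecule, read 6.53 and 6.10 in the CtBP2 knockdown cells and 6.01, 5.68 and 5.84 in the cells labelled CtBP1 knockdown, against 5.49 and 4.59 in scramble control. All 5 knockdown arrays were above both controls, and here scramble control 2 was the low one. The differences were 1.27 ± 0.32 for the CtBP2 knockdown and 0.80 ± 0.29 for the labelled CtBP1 knockdown, and 0.82 and 0.36 without scramble control 2. CLDN1, a tight junction protein, differed from the mean of the controls by 1.26 ± 0.36 in the cells labelled CtBP1 knockdown. Those arrays cleared the higher control by 0.58, and the difference was 0.69 without scramble control 1. PTGFRN, the partner of CD9 and CD81, differed from the mean of the controls by 1.30 ± 0.39 in the CtBP2 knockdown. Those arrays cleared the higher control by 0.68, and the difference was 0.72 without scramble control 1. IGSF8, the related partner, differed by -0.09 in the CtBP2 knockdown and 0.03 in the cells labelled CtBP1 knockdown.

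Of 17 measured genes of extracellular vesicle formation and release, 7 were higher and 4 lower without overlap in the CtBP2 knockdown, beside 19.3% and 21.7% of all genes. In the cells labelled CtBP1 knockdown 1 was higher and 3 were lower, beside 6.76% and 7.59%. SDC4, a syndecan that enters vesicles with syntenin, read 6.73 and 6.92 in the CtBP2 knockdown cells and 6.37, 6.40 and 6.45 in the cells labelled CtBP1 knockdown, against 5.92 and 5.99 in scramble control. The 3 groups were fully separated and the controls close, with differences of 0.87 ± 0.13 and 0.45 ± 0.11 and adjusted p of 0.184 and 0.734. RAB27B, a GTPase of vesicle secretion, read 4.03 and 3.70 in the CtBP2 knockdown cells, against 4.68 and 4.66 in scramble control, a difference of -0.81 ± 0.20. The list's median differences were 0.17 for the CtBP2 knockdown and 0.19 for the arrays labelled CtBP1 knockdown, and 0.16 and -0.0030 without scramble control 1. Palmitoylation is a lipid modification that helps hold tetraspanins together, and its list of 6 genes mixed transferases, which add palmitate, with LYPLA1 and LYPLA2, thioesterases that remove it. In the CtBP2 knockdown ZDHHC2 and LYPLA1 were higher and LYPLA2 lower without overlap, where 41% of all genes did not overlap. LYPLA2 alone was lower, and 0 were higher, in the cells labelled CtBP1 knockdown, where 14.4% did not. The transferase ZDHHC2, which modifies CD9 and CD151, read 6.74 and 7.09 in the CtBP2 knockdown cells, against 6.13 and 6.52 in scramble control. Between the knockdowns it differed by -0.80 ± 0.18 (labelled CtBP1 minus CtBP2), at an adjusted p of 0.319.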

How the data were processed

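The authors deposited 1 table of log2 signals for 33297 transcript clusters on 7 arrays, and the submitters' processing notes name Affymetrix Expression Console with RMA. RMA corrects background, equalises probe distributions and summarises probes. Versions and genome build are not given in the sources used here. Clusters with 1 symbol in GEO's platform annotation (19181) were named and updated through Entrez identifiers with RefSeq (GRCh38.p14), and the brightest cluster per gene gave 17958 genes. TSPAN19 was not analysed here.

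The group means were fitted in R 4.3.3 using limma 3.58.1 (lmFit, default eBayes) on all 7 arrays, with 4 residual degrees of freedom, two-sided p-values and Benjamini-Hochberg adjustment over all genes at 0.05. Errors are SEs of the fit unless named SD. Members and lists were chosen with earlier results of these data known. All 10 members are described. From each list, genes past the threshold, or otherwise up to 4 with the largest differences among those whose groups do not overlap, could be named per comparison, and for members spanning at least 1 log2 unit the 3 genes of most similar pattern. The alternatives were other normalizations, a filter on dim genes, other cluster rules, other variance models, fits on the compared groups, the replicate number as a block and each array left out. Tested on simulated data of 17958 genes, the fit recovered 39%, 25% and 30% of changes of 1 log2 unit, and 100%, 98% and 100% at 2 units. The order is labelled CtBP1 knockdown against scramble, CtBP2 knockdown against scramble and the direct comparison. The simulated noise was independent and had the same spread for all genes and arrays, with no outlying control. These rates therefore do not carry over to the real arrays, where TSPAN15 differed by 2.15 ± 0.60 in the CtBP2 knockdown and did not pass.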

Additional observations from a re-analysis of the deposited data

How the results depend on the processing

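The count of members past the threshold was 0 in each comparison, and it was the same under quantile normalization, median centring, a mean-variance trend, both other cluster rules, robust eBayes, a filter on genes with a mean under 3, fits on the compared groups and the replicate number as a block. Each member had just 1 cluster, so the other cluster rules left the members' own values unchanged and could hardly move their count. With array weights 1 member passed between the knockdowns. Leaving out each array gave 0 to 4 members for the labelled CtBP1 knockdown, 0 to 3 for the CtBP2 knockdown and 0 between the knockdowns. The highest counts came without scramble control 2, in a fit that takes the spread of the lone control from the other groups and called 3262 and 3952 of all genes. The members were TSPAN1, TSPAN15, CD9 and CD151 for the labelled CtBP1 knockdown, and TSPAN3, TSPAN15 and CD151 for the CtBP2 knockdown. The count of members without overlap ran from 3 to 8, 8 to 10 and 6 to 9 when arrays were left out. The shares of all genes without overlap then ran from 20.1% to 71.4%, 55.9% to 87.6% and 43% to 50%. For the labelled CtBP1 knockdown the count of members was 5 after quantile normalization. The share over all genes was not worked out there, and the cause was not tested. Signs turned for the labelled CtBP1 knockdown in 6 of 70 differences with an array left out and in 4 of 99 others (CD151, TSPAN4, CD63 and CD82). They turned for the CtBP2 knockdown in 2 of 70 and 1 of 99 (CD9 and CD82), and between the knockdowns in 0 of 70 and 0 of 99. Many of these differences could not turn, so the fractions do not measure stability. Leaving out an array of the group not compared keeps a difference as it was. So do the dim filter, both cluster rules, the mean-variance trend, robust eBayes and the fits on the compared groups. The deviations of same-numbered arrays from their group means had correlations across genes of -0.35 to 0.10. In a group of 2 arrays the deviations are mirror images, so these values cannot show whether the numbers pair arrays. With the replicate block 0 members passed in each comparison, and TSPAN1 differed by 1.15 for the labelled CtBP1 knockdown.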
